A study of Rattus norvegicus with 9 samples.

Results

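The genes described are 10 peptidases: the aminopeptidases Rnpep, Anpep, Enpep, Lnpep, Npepps, Erap1 and Lap3, and the ectoenzymes Mme, Ace and Dpp4, which cut peptide hormones at other positions. They were chosen by enzyme family, with earlier results of these arrays known, in which Rnpep had been lower in both groups of gonadotropin-treated rats. The differences of Rnpep from control are therefore given as a description with no test. All 10 were found by gene symbol on the array, by 16 probe sets. Where a gene had several, the brightest on average was taken as its main one. Of the 10, 9 passed the filter on low values and were among the 10973 genes tested, and Lnpep did not pass. The platform held 14217 genes with a symbol of their own.

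Uterine tissue of female rats was measured on 9 Affymetrix expression arrays, 3 in each of 3 groups. Control rats (arrays 41, 42 and 43) were left untreated. Model rats (21, 22 and 23) were injected with pregnant mare serum gonadotropin (PMSG) at 0.5 U per rat and, 48 h later, with the same amount of human chorionic gonadotropin, an ovulation induction scheme. Treatment rats (31, 32 and 33) had the same induction and electroacupuncture at the Guanyuan and Sanyinjiao points, in sessions of 15 min on 7 days in a row before induction and further during it. Model and treatment rats thus shared the induction and are called induced where they are pooled. Neither the strain and age of the rats nor the stage of the oestrous cycle of the controls is given in the sources used here. The protocol describes 18 rats in groups of 6 and does not tie an array to an animal, so the tests measure the spread between arrays, which may be partly technical.

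Peptidases of this kind shorten or break down small peptides, some at the cell surface and some inside cells. Aminopeptidases remove residues from the amino end, and most of the family named M1 are zinc enzymes that use the same catalytic fold. Enpep (aminopeptidase A) turns angiotensin II into angiotensin III, Anpep (aminopeptidase N) shortens angiotensin III and enkephalins, and Lnpep is the oxytocinase of pregnancy. Rnpep (aminopeptidase B) removes basic residues, Npepps is a cytosolic enzyme sensitive to puromycin, Erap1 trims peptides in the endoplasmic reticulum for class I molecules, and Lap3 is a leucine aminopeptidase of the cytosol. Mme (neprilysin) cuts enkephalins, tachykinins, natriuretic peptides and endothelin, Ace makes angiotensin II and breaks down bradykinin, and Dpp4 removes dipeptides from chemokines and gut hormones. In the uterus these enzymes lie in stroma, glands, vessels and muscle, and peptides such as oxytocin, angiotensin and endothelin act on uterine muscle and vessels.

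The arrays were of uterus by their markers, and 1 control stood apart. Pgr, Hoxa10, Hoxa11, Acta2, Krt8 and Krt18 lay above the 40th percentile of every array, whereas the brightest probe set of Esr1 lay below it on all 9, at intensities of 4.92 to 6.10. Median intensities were 23.50 to 23.96. Control 43 correlated with control 41 at r = 0.945 and with control 42 at r = 0.959, while controls 41 and 42 correlated at r = 0.989 and control 43 with model 21 at r = 0.985 (Pearson's r of log2 values across probe sets, as a description). The 14 epithelial markers summed to 20363 and 14880 in controls 41 and 42, to 4875 in control 43, to between 3749 and 4942 in model arrays and to between 4277 and 6583 in treatment arrays. Smooth muscle markers, 10 of 10 tested, summed to 13899 in control 41, to 22525 and 19891 in controls 42 and 43 and to between 21570 and 26618 in induced arrays. In bulk tissue, fewer cells of a type and less RNA per cell cannot be told apart. Results that rest on control 43 are given with and without it. This array was set apart by its values, and the labels give no technical reason to leave it out. Without it, calls over all genes in model against control went from 3 to 1384. Adjusted p-values without it leave out its share of the spread between controls, so they describe only how the results depend on it.

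Promoter sequence is shown for the 3 members with the largest range over the 9 arrays, Rnpep, Anpep and Mme, since ovarian steroids are the usual route by which gonadotropins act on the uterus. Each window runs from 250 bases before to 50 bases after the gene's start in RefSeq's annotation of the rat build GRCr8, written 5' to 3' on the gene's strand. Capitals mark GGTCA on either strand, the element that a full oestrogen response element holds as an inverted pair. The windows are chr13:49269581-49269880, minus strand, chr1:143195052-143195351, minus strand, and chr2:149872247-149872546, plus strand.
Rnpep: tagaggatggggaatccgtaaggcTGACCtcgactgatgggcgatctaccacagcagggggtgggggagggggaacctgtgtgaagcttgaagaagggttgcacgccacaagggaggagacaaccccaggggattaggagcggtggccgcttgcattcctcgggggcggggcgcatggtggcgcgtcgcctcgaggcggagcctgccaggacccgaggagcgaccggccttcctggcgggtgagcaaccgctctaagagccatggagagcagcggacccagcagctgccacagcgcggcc
Anpep: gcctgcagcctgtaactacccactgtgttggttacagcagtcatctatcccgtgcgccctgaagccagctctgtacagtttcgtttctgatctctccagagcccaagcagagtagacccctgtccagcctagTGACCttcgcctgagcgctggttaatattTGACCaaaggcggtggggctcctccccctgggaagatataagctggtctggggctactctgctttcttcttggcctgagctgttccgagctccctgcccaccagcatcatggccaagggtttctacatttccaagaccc
Mme: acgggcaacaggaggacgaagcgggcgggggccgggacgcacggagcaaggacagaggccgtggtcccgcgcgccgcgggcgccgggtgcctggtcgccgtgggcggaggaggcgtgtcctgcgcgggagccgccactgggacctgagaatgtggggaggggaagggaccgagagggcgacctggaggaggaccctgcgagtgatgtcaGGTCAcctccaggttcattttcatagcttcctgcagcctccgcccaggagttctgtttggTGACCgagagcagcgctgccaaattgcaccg
GGTCA was present once for Rnpep and 2 times each for Anpep and Mme, and in none of the windows of the other 6 members in the table. It was present in 40.5% of all 33469 windows of this length, so 3 of 9 members is near that share. The full oestrogen response element was in 0 of the 9 members' windows and in 0.0269% of all windows. TGTTCT, the core of the progesterone and glucocorticoid response elements, was in 0 of 9 against 20.7% of all windows. GGGCGG, the GC box, was in 6 of 9 against 33.1%, and the 9 windows held 7 to 41 CG pairs against a median of 7 over all windows. These matches describe letters in the windows and say nothing of binding.

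Rnpep separated every induced array from every control. Its intensity was 448, 420 and 494 in controls 41, 42 and 43, then 147, 211 and 139 in model arrays 21, 22 and 23, and 130, 108 and 126 in treatment arrays 31, 32 and 33. Controls were highest, with control 43 the highest of all, and no group overlapped another. Mean intensity was 454 ± 37.3 in control, 165 ± 39.3 in model and 121 ± 11.5 in treatment arrays (SD, n = 3). On the scale log2(intensity + 16), on which all fold changes are given, Rnpep differed from control by -1.39 in model and by -1.78 in treatment arrays (SE 0.15 for both). These differences are what brought Rnpep into the set. Without control 43 they were -1.33 and -1.72.

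The contrast that did not bring Rnpep in, treatment against model, gave a log2 fold change of -0.39 (SE 0.15, 95% interval -0.73 to -0.04, limma adjusted p = 0.32), which did not pass. All 3 treatment arrays lay below all 3 model arrays, but the nearest, treatment 31 and model 23, were at 130 and 139. Groups did not overlap in this contrast for 28% of the genes tested. The difference was -0.22 without model 22 and -0.49 without model 23.

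In controls 41 and 42 Rnpep and the epithelial marker sum were both high, and in the 6 induced arrays both were lower than there. Among the induced arrays treatment 32 had the lowest Rnpep, at 108, and the highest sum, 6583. Model 22 had the highest Rnpep, at 211, with a sum of 3839. The sums were 3749 and 4942 in model arrays 21 and 23, and 4277 and 6372 in treatment arrays 31 and 33. In control 43 Rnpep was at 494 while the marker sum, 4875, lay within the induced arrays' range of 3749 to 6583. The epithelial list had 0 of 14 members positive in model and 1 of 14 in treatment against control, and 0 passed in either. The part of epithelial content in the level of Rnpep was not tested.

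Anpep was low in controls 41 and 42, intermediate in induced arrays and far highest in control 43. Its intensity was 43.6, 47.1 and 186 in controls 41, 42 and 43, between 88.1 and 97.2 in model arrays and between 66.7 and 68.3 in treatment arrays. The 3 treatment arrays lay close together (mean 67.3 ± 0.842, SD, n = 3) and below all 3 model arrays. Control 43 was 1.72 log2 units above the mean of the other controls, a distance over 1 that only 6.25% of the genes tested had in either direction. Over all arrays Anpep did not pass, with log2 fold changes of 0.24 in model (SE 0.40, 95% interval -0.68 to 1.16, adjusted p = 0.802) and -0.13 in treatment against control (SE 0.40, interval -1.05 to 0.79, adjusted p = 0.895).

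Without control 43, with 2 controls left, Anpep passed as higher in both comparisons, by 0.81 in model (SE 0.077, adjusted p = 0.0023) and by 0.44 in treatment arrays (SE 0.077, adjusted p = 0.0167). Its direction in treatment against control thus turned with that array. Treatment against model gave -0.37 for Anpep with all arrays (SE 0.40, adjusted p = 0.666) and the same -0.37 without control 43 (SE 0.069, adjusted p = 0.144), and did not pass in either. Stromal markers, 10 of 10 tested, summed to 12033 in control 43, the highest of the 9 arrays (6195 to 12033), and 7 endothelial markers summed to 1288 there, also the highest (335 to 1288). Model 22 had the next highest of both sums, 11797 and 1103, with Anpep at 88.1. Stroma and endothelium both carry Anpep in many tissues. Their part in its level was not tested.

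**Figure D1:**
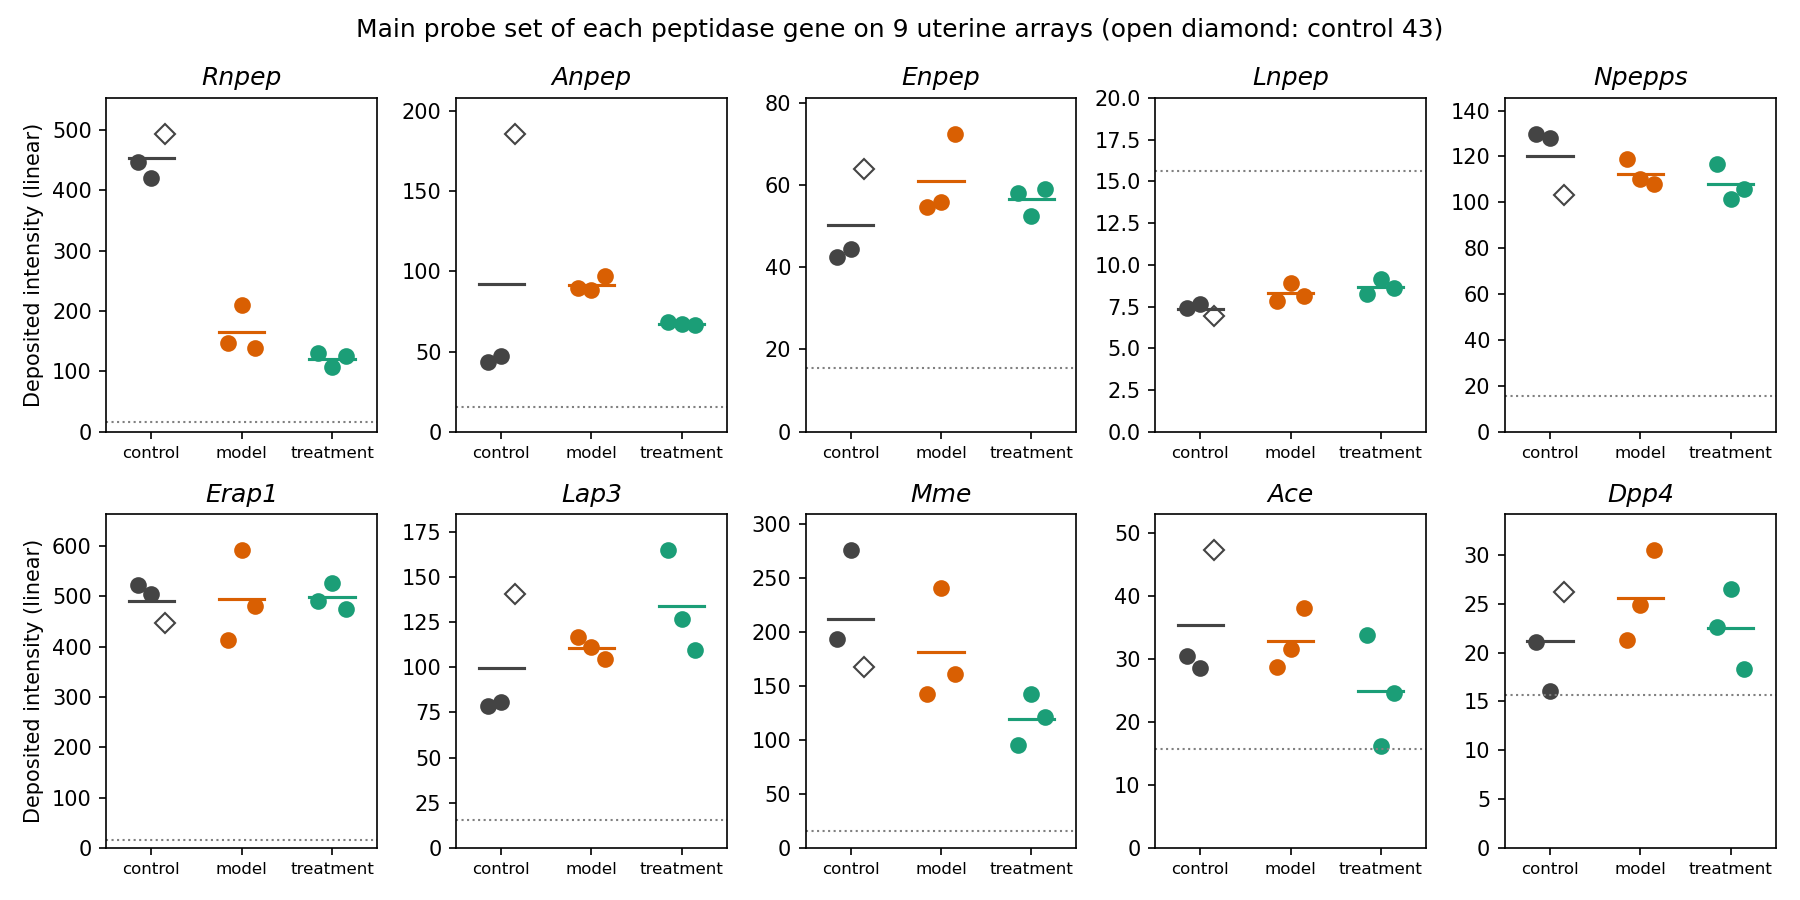
Deposited intensity on a linear axis of the main probe set of each of the 10 genes, with 1 point per array, a bar at each group's mean of 3 arrays, an open diamond for control 43 and a dotted line at the mean 40th percentile of the arrays. Rnpep shows 3 groups that do not overlap, Anpep shows control 43 alone at 186, and Lnpep lies below the dotted line throughout.

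Enpep and Ace, which make and remove angiotensin peptides, did not pass in any comparison. Enpep measured 42.4, 44.5 and 63.9 in controls 41, 42 and 43, 52.6 to 59.1 in treatment and 54.7 to 72.5 in model arrays. Controls 41 and 42 were the lowest of the 9 and control 43 lay among the induced arrays. Its log2 fold change was 0.22 in model (SE 0.14, interval -0.09 to 0.54, adjusted p = 0.496) and 0.14 in treatment against control (SE 0.14, adjusted p = 0.625).

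The second probe set of Enpep differed in size from the first. It measured 28.0, 30.4 and 53.6 in controls, 61.8, 94.5 and 60.7 in model arrays 21, 22 and 23, and 65.9, 55.5 and 49.2 in treatment arrays 31, 32 and 33. Every model array lay above every control, and treatment 33 lay below control 43. Fitted as a row of its own among 19326 probe sets, a choice made after seeing the data, it gave 0.74 in model against control (SE 0.21, adjusted p = 0.269) and 0.48 in treatment against control (SE 0.21, adjusted p = 0.297). Without control 43 these were 0.95 (adjusted p = 0.0163) and 0.68 (adjusted p = 0.0597), while the main probe set gave 0.37 (adjusted p = 0.0707) and 0.29 (adjusted p = 0.169) in the fit of genes. The gain of Enpep in model arrays thus passed by 1 of its 2 probe sets, and only with control 43 left out. In the fit of genes without that array, 12.6% of all genes passed in model against control. The share over all probe sets is not given here.

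Ace shared its highest and lowest arrays with the endothelial marker sum, but the arrays between them were not ordered alike. It measured 30.5, 28.6 and 47.3 in controls 41, 42 and 43, 28.6, 31.6 and 38.1 in model arrays, and 33.8, 16.1 and 24.5 in treatment arrays 31, 32 and 33. Its highest array, control 43, and its lowest, treatment 32, were also the extremes of the endothelial sum, 1288 and 335. They were the extremes of the second Ace probe set too, at 63.5 and 11.3. Signal was low in treatment 32, where the 40th percentile was 16.09. The main probe set lay just above it, at 16.14, and the second below it. Control 42 and model 21, both at 28.6 for Ace, had endothelial sums of 618 and 976. Treatment 33, at 24.5, had a sum of 797. The vessel lining is a classical site of this enzyme, and the part of endothelial content in its level was not tested. The log2 fold change was -0.34 in treatment against control (SE 0.18, interval -0.76 to 0.08, adjusted p = 0.378), -0.06 in model against control (adjusted p = 0.892) and -0.27 in treatment against model (adjusted p = 0.486). Without control 43 it was -0.18 in treatment (adjusted p = 0.554) and turned to 0.10 in model against control (adjusted p = 0.74). The second probe set went from -0.57 to -0.21 in treatment and from -0.22 to 0.14 in model against control.

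Lnpep lay below the filter on all 9 arrays. Its brighter probe set measured 6.93 to 7.68 in controls, 7.81 to 8.93 in model and 8.28 to 9.14 in treatment arrays, below the 40th percentile of each array (15.2 to 16.2), and its second probe set measured 4.58 to 5.62. Without the filter, the brighter one had log2 fold changes of 0.06 in model and 0.08 in treatment against control (limma adjusted p = 0.472 and 0.207). Differences at this level cannot be told from background, since no detection calls were used here.

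Among the intracellular aminopeptidases, Erap1 and Npepps stayed close to control and Lap3 did not settle. Erap1 measured 522, 505 and 447 in controls 41, 42 and 43, 413 to 592 in model and 475 to 527 in treatment arrays, with all groups overlapping. Its log2 fold change in treatment against control was 0.02 (SE 0.13, interval -0.28 to 0.32, adjusted p = 0.953), and its interval in model against control ran from -0.30 to 0.30 (adjusted p = 0.99996). A second probe set of Erap1 gave -0.05 in model and 0.004 in treatment against control, and another, at 4.24 to 4.93, lay below the filter.

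Npepps measured 103 to 130 in controls, 108 to 119 in model and 102 to 117 in treatment arrays, with log2 fold changes of -0.08 and -0.13 against control (SE 0.10, adjusted p = 0.728 and 0.526). The intervals, -0.31 to 0.15 and -0.37 to 0.10 for Npepps, were narrower than those of Erap1. Control 43, at 103, was the lowest of the controls.

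Lap3 measured 78.4, 80.5 and 140 in controls 41, 42 and 43, 104 to 116 in model and 110 to 165 in treatment arrays. Controls 41 and 42 lay below all induced arrays, and control 43 was second only to treatment 31. Over all arrays the log2 fold change was 0.17 in model (SE 0.21, adjusted p = 0.722) and 0.40 in treatment against control (SE 0.21, interval -0.08 to 0.87, adjusted p = 0.359). Without control 43 it was 0.63 in treatment against control (SE 0.15, adjusted p = 0.0451), which passed, and 0.41 in model (adjusted p = 0.107), which did not.

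Mme was lowest in treatment arrays. It measured 194, 276 and 168 in controls 41, 42 and 43, 142, 241 and 162 in model arrays 21, 22 and 23, and 95.1, 143 and 122 in treatment arrays 31, 32 and 33. All treatment arrays lay below all controls, whereas model 22 lay above controls 41 and 43. The log2 fold change in treatment against control was -0.74 (SE 0.23, interval -1.28 to -0.20, adjusted p = 0.185), which did not pass, and groups failed to overlap for 23.3% of all genes tested in that contrast. It was -0.88 without control 43 (adjusted p = 0.0773) and -0.55 without control 42. In model against control it was -0.21 (adjusted p = 0.69), and in treatment against model -0.52 (SE 0.23, interval -1.06 to 0.01, adjusted p = 0.35).

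Dpp4 lay close to the filter. Its main probe set measured 16.1 to 26.3 in controls, 21.3 to 30.5 in model and 18.3 to 26.5 in treatment arrays, against 40th percentiles of 15.2 to 16.2, so the size of any change is understated. Its log2 fold changes against control were 0.16 in model (SE 0.13, adjusted p = 0.574) and 0.05 in treatment (SE 0.13, adjusted p = 0.863). The second Dpp4 probe set was highest in control 43, at 37.5, and lowest in control 42, at 13.3. Groups overlapped in every comparison with either probe set.

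**Figure D2:**
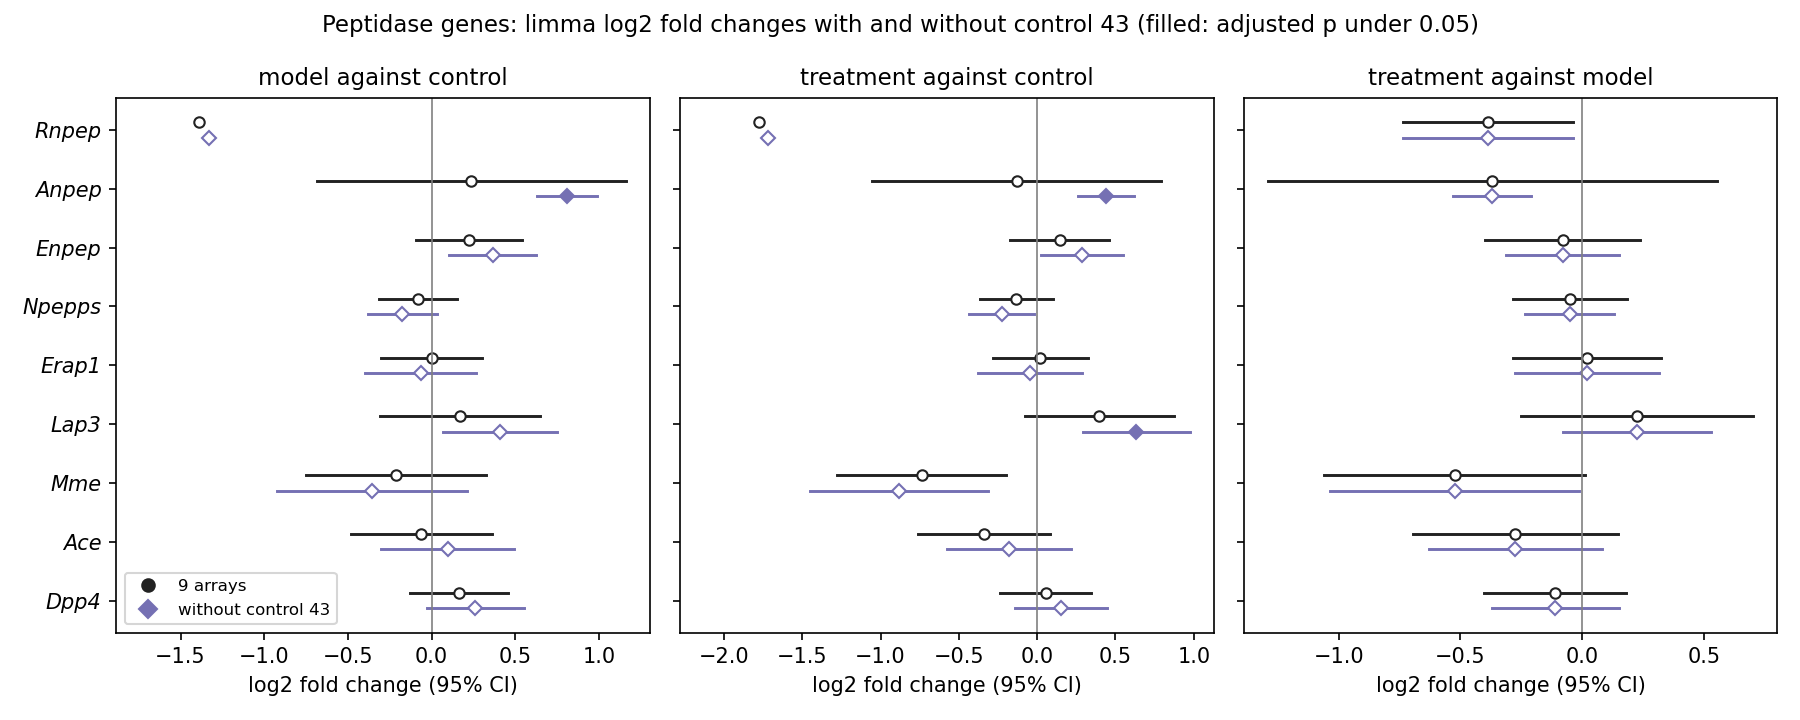
Log2 fold changes with 95% confidence intervals from limma for the 9 tested members in 3 comparisons, with all 9 arrays (circles) and without control 43 (diamonds); filled symbols have an adjusted p under 0.05. Rnpep against control has no interval or call because those contrasts chose it; it lies at -1.39 and -1.78 against control, Anpep moves from 0.24 to 0.81 in model against control when control 43 is left out, and no symbol is filled in treatment against model.

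Across the set, calls were few. At an adjusted p under 0.05, 1 of the 9 tested members passed in model against control, where 0.0273% of all genes did, 1 in treatment against control (0.51% of all genes), 1 with both induced groups averaged against control (0.574%), and 0 between treatment and model arrays (0%). The member was Rnpep each time, and since it was chosen from these contrasts nothing is read from it. Of the other 8, 0 passed in any comparison by limma. At an unadjusted p under 0.05, 1 member was counted in model against control (12.4% of all genes), 2 in treatment against control (17.4%), 1 in treatment against model (14.7%) and 2 in induced against control (15.3%). Rnpep was counted in all of them, and Mme in the comparisons that gave 2. Groups did not overlap for 1 member in model against control (14.5% of genes) and for 2 in treatment against control (23.3%), namely Rnpep and Mme. Between treatment and model arrays they did not overlap for 2 members, Rnpep and Anpep (28%). Among the 8 members other than Rnpep, 0 or 1 was counted by each of these rules, a share that did not exceed the background in any of these counts.

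Without control 43, Anpep was called beside Rnpep in model against control, where 12.6% of all genes passed, and Anpep and Lap3 beside Rnpep in treatment against control, where 6.56% did. Without any other single array, none of the 8 members other than Rnpep was called in these comparisons. The median log2 fold change of the 9 members was 0.00 in model and -0.13 in treatment against control, beside 0.02 and -0.04 over all genes tested. The median size of the change, sign aside, was 0.17 and 0.14 for members and 0.13 and 0.13 for all genes.

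Control 43 was the highest of all 9 arrays for 3 of the 9 tested members (Rnpep, Anpep and Ace) and the lowest for 0, against 16.7% and 9.98% of all genes tested. The median distance of control 43 from the mean of controls 41 and 42 was 0.43 log2 units for members and 0.20 for all genes. Anpep (1.72), Lap3 (0.71), Ace (0.48) and Enpep (0.43) lay above the other controls, and Mme (-0.43), Npepps (-0.28) and Erap1 (-0.19) below them. Without it, the log2 fold changes in model and treatment against control were -0.18 and -0.23 for Npepps, -0.06 and -0.04 for Erap1 and 0.26 and 0.15 for Dpp4, and none of these passed.

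**Figure D3:**
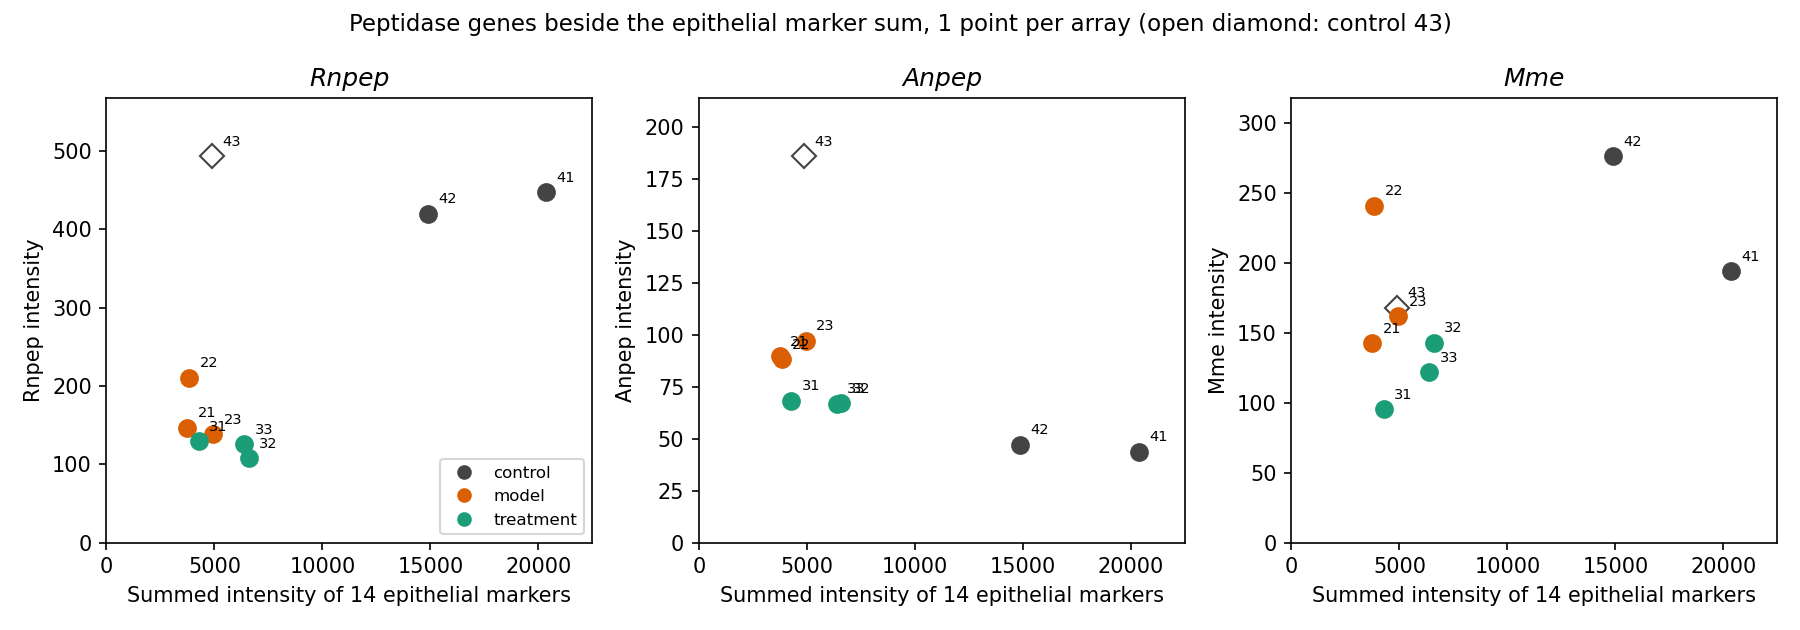
Intensity of Rnpep, Anpep and Mme against the summed intensity of 14 epithelial markers, 1 point per array, both axes linear and array numbers beside the points. Control 43 (open diamond) has an epithelial sum of 4875, within the range of the induced arrays, with Rnpep at 494 and Anpep at 186, above every other array.

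Other genes of peptide processing were read from lists by enzyme class, and 0 of them passed in any comparison over all arrays. Calls in these lists without control 43 are to be read beside the 12.6% of all genes that passed in model and the 6.56% in treatment against control in that fit. Of 6 other genes of the M1 family, 4 were tested, and 4 of 4 lay below control in treatment arrays (median -0.28, against -0.04 over all genes). Lta4h, which makes leukotriene B4 and is also an aminopeptidase, measured -0.17 in model and -0.29 in treatment against control (adjusted p = 0.557 and 0.286). Taf2, a relative of the family in the transcription machinery, measured -0.26 in treatment (adjusted p = 0.197) and Aopep 0.30 in model against control (adjusted p = 0.53). Without control 43, Rnpepl1, a relative of Rnpep, passed as lower in model and treatment against control (-0.56 and -0.57, adjusted p = 0.0318 and 0.0411), and Lta4h in treatment (-0.43, adjusted p = 0.0426).

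Of 25 other aminopeptidases, dipeptidyl and proline-specific peptidases 22 were tested, of which 15 lay below control in model and 16 in treatment arrays (medians -0.05 and -0.09). Prcp, which removes the last residue of angiotensin II and III, measured 8.43, 8.22 and 7.32 (log2) in controls 41, 42 and 43, 6.87 to 7.16 in model and 6.60 to 6.89 in treatment arrays, with all induced arrays below all controls (-1.02 and -1.29, adjusted p = 0.252 and 0.0838). Cndp2, a cytosolic dipeptidase, measured 9.20 to 9.36 in controls, 9.04, 8.02 and 7.73 in model arrays 21, 22 and 23 and 7.61 to 7.91 in treatment arrays (-1.02 and -1.50, adjusted p = 0.269 and 0.0731). Xpnpep1, which removes the first residue of bradykinin, measured 7.61 to 7.81 in controls, 7.07 to 7.20 in model and 7.06 to 7.48 in treatment arrays (-0.61 and -0.52, adjusted p = 0.162 and 0.118). For these 3, named for the smallest p of the 22, induced and control arrays did not overlap, as was the case for 14.5% of all genes in model and 23.3% in treatment against control. Without control 43, 4 of the 22 passed in model (Prcp, Xpnpep1, Metap1 and Prep) and 4 in treatment against control (Prcp, Cndp2, Metap1 and Prep), all lower. Of all genes that passed in that fit, 625 of 1384 were higher in model and 163 of 720 in treatment against control.

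Of 21 other metallo-endopeptidases and carboxypeptidases 15 were tested, with 12 positive in model and 9 in treatment against control (medians 0.09 and 0.04). Cpxm1, a secreted carboxypeptidase relative, measured 5.73, 5.62 and 6.88 (log2) in controls 41, 42 and 43, 7.86 to 8.33 in model and 6.99 to 7.63 in treatment arrays, all above all controls (1.99 and 1.14, adjusted p = 0.119 and 0.163). Cpm, a membrane enzyme that removes terminal arginine and lysine from kinins, gave 0.73 and 1.24 (adjusted p = 0.426 and 0.147), and Cpd -0.05 and -0.34 (adjusted p = 0.848 and 0.173). Without control 43, Cpxm1 passed in both (2.40 and 1.55, adjusted p = 0.0018 and 0.0076), Cpxm2 in model and Cpd, as lower, in treatment against control.

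The peptides and receptors that these enzymes serve gave no call with or without control 43. In the renin-angiotensin list 4 of 10 genes were tested. The angiotensin receptor genes Agtr1a (0.64 in model, 0.13 in treatment against control, adjusted p = 0.447 and 0.87), Agtr1b (0.15 and -0.33) and Agtr2 (-0.06 and 0.11) did not pass. Of the 7 kinin genes 5 were on the array and 0 were bright enough to be tested. In the list of other peptides and receptors 14 of 28 were tested, with medians of -0.06 and 0.004. Oxt, the precursor of oxytocin and a substrate of Lnpep, varied within groups as well as between them. It measured 8.62, 8.47 and 5.31 (log2) in controls 41, 42 and 43, 5.87, 6.24 and 8.83 in model arrays 21, 22 and 23, and 9.85, 9.25 and 10.27 in treatment arrays. Treatment arrays were above all others, but the log2 fold change of 2.81 against model did not pass (adjusted p = 0.292). The tachykinin receptor gene Tacr2 gave 0.32 and 0.44 against control (adjusted p = 0.398 and 0.174) and Avp -0.18 and -0.10.

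Of the 13 genes that supply and load class I peptides beside Erap1, 12 were tested and 0 passed. Against control, 11 lay lower in model and 10 in treatment arrays. Their medians were -0.22 and -0.19, beside 0.02 and -0.04 over all genes. Model 21 was the lowest model array for each tested gene of this list. Psmb8 measured 6.76, 8.39 and 8.74 (log2) in model arrays 21, 22 and 23. In controls 41, 42 and 43 it measured 9.28, 8.71 and 7.55. Pdia3, a disulphide isomerase of the loading complex, gave -0.54 and -0.23 (adjusted p = 0.341 and 0.567), the chaperone Calr -0.44 and -0.34 and the peptide transporter subunit Tap1 -0.14 and -0.29. Without control 43 Pdia3 passed as lower in model arrays (-0.76, adjusted p = 0.0182). Among 5 tested partners of Lnpep in insulin-responsive vesicles, Sort1 gave -0.36 and -0.58 (adjusted p = 0.453 and 0.196), and without control 43 Lrp1 (0.64) and Tbc1d4 (0.77) passed as higher in model against control.

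The genes with the pattern most like that of Rnpep were ranked by the root mean square difference between log2 profiles. Each profile was centred on its mean over the 9 arrays. Loci with only a number or clone name as symbol were left out of the ranking. Nearest was Sftpd, the collectin surfactant protein D (0.21), then Evi2a (0.29), the nucleoside transporter gene Slc28a2 (0.31), the aldose reductase gene Akr1b1 by its brightest probe set (0.32) and the transcription factor gene Sox7 (0.34). Each was lower in treatment against control, by log2 fold changes of -1.20 (Evi2a) to -2.05 (Sftpd). Rnpep and Sftpd alike had all 3 controls at or above 0.95 on the centred scale. These shared directions follow from the ranking itself and are not a separate result. For Anpep, the member that varied most after Rnpep (SD 0.52 over the 9 arrays), the nearest were Hnrnph3 (0.19), Selenoi (0.20), Fastkd3 (0.20), Tenm3 (0.20) and Timm21 (0.21). Each was highest in control 43, which likewise follows from the ranking.

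**Figure D4:**
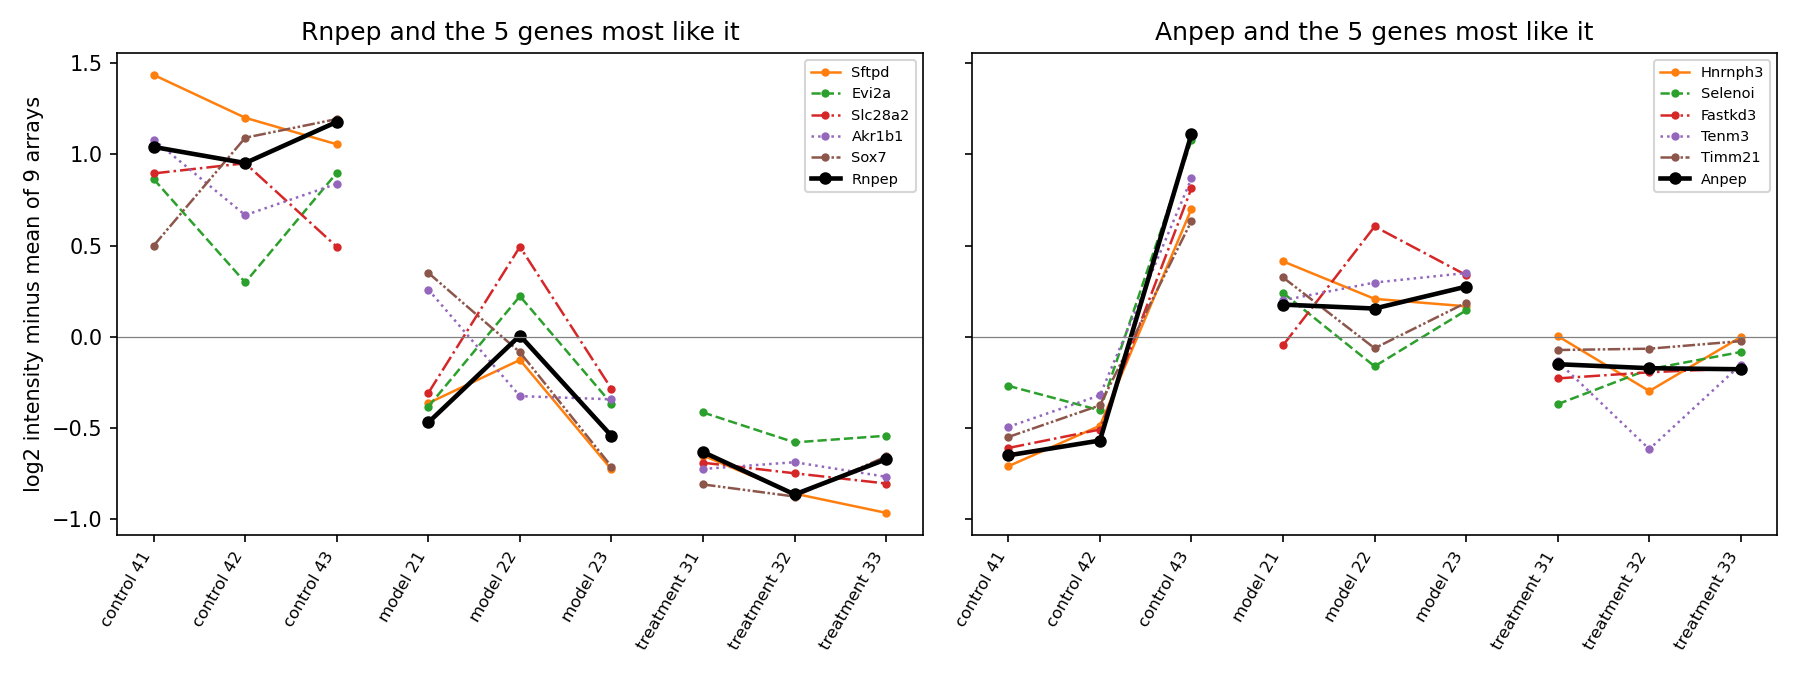
Log2 intensity minus its mean over 9 arrays for Rnpep (left) and Anpep (right), in black, and for the 5 genes nearest to each. Nearness is the smallest root mean square difference among tested genes, without loci that have only a number or clone name. Lines only link the 3 arrays of a group, which have no order; Rnpep is near 1 in all controls, and Anpep is at 1.11 in control 43 and below 0 in controls 41 and 42.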

How the data were processed

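Total RNA of uterine tissue was hybridised to 1 Affymetrix rat array per sample. The values were the authors' deposited normalized intensity per probe set on a linear scale. The submitters' processing notes name MAS5, without its settings or scaling, and neither detection calls nor scanner files were used here. The array titles give each array a replicate number of its own and do not say whether RNA of several rats was combined.

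Removing 57 Affymetrix controls from 31099 probe sets kept 31042. The annotation of the platform had 1 symbol for 20826 of these, several for 436 and none for 9780, and 20758 symbols were matched to RefSeq by gene ID. Values were used as log2(intensity + 16), which understates changes of dim genes. A probe set passed if it reached the 40th percentile of its array on at least 3 arrays, which 19326 did, and the brightest one stood for its gene (10973 genes). One fit to all 9 arrays used limma 3.58.1 in R 4.3.3 with a variance trend and 6 residual degrees of freedom, two-sided, with Benjamini-Hochberg adjustment over all genes within a comparison. It was tested on simulated data. The number of arrays limits the precision.

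Members and lists were chosen with earlier results of these data known. Every member was described. Of each list, up to 3 genes with the smallest p against control were named, and those that passed in a fit without control 43 were named after their values were seen. Alternatives tried were a pseudocount of 1 or 64, quantile normalization, median centring, no filter or the 60th percentile, no or a robust variance trend, only the arrays compared, averaged probe sets, a replicate block, each array left out, and, added after seeing the data, every probe set as its own row. Promoter windows came from RefSeq (GRCr8). Plots used matplotlib 3.10.9 (Python 3.11.15).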

Additional observations from a re-analysis of the deposited data

How the results depend on the processing

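The count of members that passed in model against control, 1 in the reported fit, was 0 with no filter, 0 with only the 6 arrays compared and 0 with a replicate block made of the arrays' last digits. That member is Rnpep, which was chosen from this contrast, so nothing is read from the change of count. Its difference was -1.39 in these 3 settings, and with single arrays left out ran from -1.56 to -1.29 in model and -1.83 to -1.71 in treatment against control. The array numbers are not stated to pair rats. Deviations of same-digit arrays had r of -0.41 to 0.31 across genes, beside -0.39 to 0.45 for arrays of different digits. Leaving out single arrays gave counts of 0 to 2 in model, 0 to 3 in treatment and 1 to 3 in induced against control, and 0 in treatment against model. Rnpep differed from control by -1.19 to -1.47 in model and -1.48 to -1.90 in treatment arrays over the settings that left out no array.

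Directions turned for members that did not pass. Erap1 in model against control was -0.00036 with 1 added, -0.0086 with median centring and -0.026 with averaged probe sets, and -0.0069 in induced against control with the last. Npepps in treatment against model was 0.045 with quantile normalization, and Anpep in induced against control -0.011 with 64 added. With single arrays left out, Anpep ran from -0.069 to 0.81 in model, -0.44 to 0.44 in treatment and -0.25 to 0.63 in induced against control, Erap1 from -0.13 to 0.12, -0.044 to 0.065 and -0.056 to 0.070 in these and from -0.10 to 0.15 in treatment against model, Ace from -0.16 to 0.10 in model, Dpp4 from -0.047 to 0.15 in treatment against control, and Enpep from -0.14 to 0.025 in treatment against model. The cause was not tested. No scaling moved the median of all genes by over 0.1. Over all genes, calls went from 3 to 1 in model against control with no filter or only the arrays compared, from 56 to 27 in treatment and from 63 to 32 in induced against control with the block, and in the latter to 34 with no filter and 32 with averaged probe sets. Of the calls in treatment against control 19 of 56 were higher, but 27 of 55 with quantile normalization and 27 of 52 with only the arrays compared. Low signal limits Dpp4, Ace and Lnpep, whose intensities lay near or below the filter.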
